A study of Mus musculus with 51 samples.

Results

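Imprinted genes, which are transcribed mainly from the copy inherited from one parent, were followed through mouse limb development. The members were taken from a list of 37 textbook imprinted genes matched by symbol to the array's probe annotation, using probe sets annotated with 1 symbol. 33 of the 37 were measured, among 18194 genes in all. Rtl1, Dio3 and Peg13 had no entry in the annotation, and the only entry of H19 is shared with the microRNA gene in its first exon, so these 4 were not analysed here. Of the 33, 19 are expressed mainly from the paternal copy, 13 mainly from the maternal copy, and Gnas gives rise to transcripts of several imprinting patterns. The 33 genes were represented by 96 probe sets, 11 genes by 1 probe set and 22 by 2 or more.

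The study profiled embryos of the FVB strain, for which the labels name no transgene and no agent, on 51 whole-genome mouse arrays. There were 3 forelimb arrays of E9.5, 5 of E10.5, 4 of E11.5, 5 of E12.5 and 5 of E13.5, and there were 4 hindlimb arrays of E10.5 and 5 of every later stage. Whole embryos, which served as the control, were measured on 2 arrays at each of the 5 stages. Each array held the total RNA of the forelimbs, the hindlimbs or the whole body of a single embryo, and the limb samples of a stage came from one litter, so that stage and litter coincide and the spread between limb arrays is that between littermates.

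Imprinting is set in the germ line by DNA methylation of control regions, and it is read out in clusters, in which a long non-coding RNA is often made from one parental copy while protein-coding genes are made from the other. Many imprinted genes act on fetal growth, with paternally expressed genes such as Igf2 generally promoting it and maternally expressed genes such as Igf2r, Cdkn1c, Grb10 and Phlda2 generally restraining it. Some of them are expressed in limb mesenchyme, cartilage or muscle precursors, which these arrays of whole limbs do not resolve. The arrays measured the total transcript of each gene and cannot say which parental copy it came from.

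The Dlk1-Dio3 cluster on chromosome 12, whose non-coding RNAs had the largest rises of the members between E12.5 and E13.5 in both limbs, is shown first by its microRNAs. Meg3, Rian and Mirg are maternally expressed long non-coding RNAs on the plus strand, and 28 mature microRNAs of 15 microRNA genes lie inside their spans in RefSeq (GRCm38.p6), 3 in Meg3, 6 in Rian and 19 in Mirg. The array did not measure mature microRNAs, so these sequences are given to show what the host transcripts carry. The 3 in Meg3 (chromosome 12, 109540996 to 109571729) and the 6 in Rian (109603945 to 109661716) are written 5′ to 3′ with the seed, bases 2 to 8, in capitals.
miR-1906: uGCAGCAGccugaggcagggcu
miR-770-5p: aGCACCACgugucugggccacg
miR-770-3p: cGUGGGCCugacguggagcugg
miR-341-5p: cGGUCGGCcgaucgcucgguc
miR-341-3p: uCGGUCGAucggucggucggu
miR-1188-5p: uGGUGUGAgguugggccagga
miR-1188-3p: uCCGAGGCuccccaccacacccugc
miR-370-5p: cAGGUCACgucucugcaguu
miR-370-3p: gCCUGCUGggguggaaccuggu
The 28 microRNAs held 27 distinct seeds. The only seed found in more than 1 of them belonged to a pair within Mirg (109734981 to 109749458), which is shown because the rest of the 2 sequences differs.
miR-453: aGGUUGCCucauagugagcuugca
miR-496a-5p: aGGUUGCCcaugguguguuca

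Promoter windows of Meg3 and of Plagl1, a paternally expressed zinc finger gene, are shown because both genes rose in both limbs at the last stage. Each window runs from 250 bases before to 50 bases after the annotated start. The hexamer TGCCGC, which ZFP57 binds when it is methylated at imprinting control regions, was searched on both strands, where it reads GCGGCA on the other strand, and occurrences are in capitals. It was present in 11.6% of all 32851 windows in RefSeq (GRCm38.p6) and in 10 of the 47 windows (21.3%) of the 29 members searched. Those 10 windows belonged to 9 genes, Grb10, Igf2, Meg3, Mest, Nnat, Plagl1, Snrpn, Zdbf2 and Zim1. The Mest windows with the hexamer overlap almost fully and were counted separately. The percentages therefore do not count independent sequences, and the difference between them was not tested. The first Meg3 window (chr12:109540746-109541045, plus strand) held 1 occurrence and 13 CpG sites, and the Plagl1 window (chr10:13090582-13090881, plus strand) held 1 occurrence and 26 CpG sites, against a median of 7 CpG sites over all windows.
Meg3: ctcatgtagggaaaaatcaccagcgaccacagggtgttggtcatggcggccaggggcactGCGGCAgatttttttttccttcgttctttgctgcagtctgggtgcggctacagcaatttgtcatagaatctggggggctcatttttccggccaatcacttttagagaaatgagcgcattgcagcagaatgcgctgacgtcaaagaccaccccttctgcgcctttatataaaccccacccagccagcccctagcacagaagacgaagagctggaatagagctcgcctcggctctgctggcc
Plagl1: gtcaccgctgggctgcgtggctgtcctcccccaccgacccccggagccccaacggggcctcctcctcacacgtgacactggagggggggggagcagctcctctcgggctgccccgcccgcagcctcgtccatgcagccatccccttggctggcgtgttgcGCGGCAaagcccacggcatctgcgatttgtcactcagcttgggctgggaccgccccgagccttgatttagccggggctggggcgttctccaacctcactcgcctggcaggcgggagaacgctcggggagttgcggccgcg

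Levels are given as log2 of the probe set intensity, as the mean of a gene's probe sets. All 14 groups were fitted together in limma, and calls of up-regulation or down-regulation needed a change of 2-fold or more at a Benjamini-Hochberg adjusted p under 0.001 over the 18194 genes. The median SD of a member within a limb group from E10.5 was 0.13 and the highest was 0.66. The E10.5, E11.5, E12.5 and E13.5 limb arrays, 38 in all, and the 13 others form technically distinct sets. Dap, a bacterial RNA added before labelling, read 3.04 to 3.63 on the 38 limb arrays and 10.7 to 13.3 on the other 13, and for Gapdh the log2 difference of the 3′ over the 5′ probe set was -0.10 to 0.16 on the 38 and 1.48 to 2.85 on the 13. Comparisons between limbs, between limb stages from E10.5 and between whole-embryo stages lie within a set. E9.5 forelimb over whole embryo lies within the 13, which were not uniform. On the 3 E9.5 forelimb arrays Dap read 12.80 to 13.29, against 11.74 and 11.61 on the E9.5 whole embryos. The Gapdh difference was 1.48 to 1.73 there, against 2.03 and 2.85. Tissue and technical differences cannot be told apart in that comparison either. The other comparisons of limb with whole embryo cross the sets, and there tissue and array set cannot be told apart.

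The tissue labels were checked on marker genes. Summed over 10 genes of limb mesenchyme, the group means of the log2 level were 12.04 to 13.28 in limbs from E10.5 and 10.74 to 11.35 in whole embryos, while the sum of 10 liver genes was 7.23 to 8.51 and 14.9 to 15.1 at its highest in whole embryos, at E13.5. Array 3 of E10.5 hindlimb stood apart, with a neural marker sum of 10.6 against 8.05 to 8.25 on the other 3 arrays of its group and a skeletal muscle sum of 11.3 against 8.81 to 9.67. The 2 E9.5 whole embryos also differed from each other, with limb mesenchyme sums of 11.47 and 10.22. For 2 arrays, E11.5 hindlimb 5 and E12.5 forelimb 5, other labels name a different tissue or stage than the title. On E11.5 hindlimb 5, the forelimb gene Tbx5 read 5.75, against 5.37 to 6.02 on the other 4 E11.5 hindlimb arrays. On E12.5 forelimb 5 it read 9.77, against 9.67 to 9.75 on the other 4 E12.5 forelimb arrays, so both were grouped by title.

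Levels of the 33 genes in limbs covered almost the whole range of the array. Over the 38 limb arrays, 25 of 33 lay above the median gene (6.02). The brightest were Mest, a paternally expressed hydrolase-like gene of mesoderm (mean 13.44), Cdkn1c, a cyclin-dependent kinase inhibitor (12.68), Nnat, a small membrane proteolipid (12.67), and the fetal growth factor Igf2 (11.28). Ascl2, a transcription factor of the placenta (3.501), and Slc22a18, a membrane transporter (5.13), were the dimmest. Probe sets of different genes are not on one scale of abundance, so this order is of signal only. Among the group means of limbs from E10.5, Meg3 varied most (a span of 2.76), followed by Rian (2.75), Plagl1 (2.74), Mirg (2.72) and Asb4 (2.46), and Ascl2 (0.18) and Mest (0.23) varied least. The highest forelimb mean was at E13.5 in 21 of the 33 genes, and the highest hindlimb mean at E13.5 in 20. The same counts were not taken over all genes, and the forelimb count includes genes of small range such as Mest.

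Between E10.5 and E13.5, 11 imprinted genes rose and 3 fell in forelimb. Of all genes, 10.6% were called in either direction in this comparison and 5.43% were called up. In hindlimb 10 members rose and 3 fell, where 11.1% of all genes were called and 5.99% were called up. The 10 genes that rose in hindlimb also rose in forelimb, the 3 that fell were the same in both limbs, and 0 changed in opposite directions. The median log2 change of the 33 was 0.33 in forelimb and 0.42 in hindlimb, beside medians of -0.03 and -0.08 over all genes. By parental origin, 6 of 13 maternally expressed genes rose and 1 fell in forelimb, and 4 of 19 paternally expressed genes rose and 2 fell. In bulk tissue a change in the number of cells that express a gene and a change in RNA per cell cannot be told apart.

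**Figure D1:**
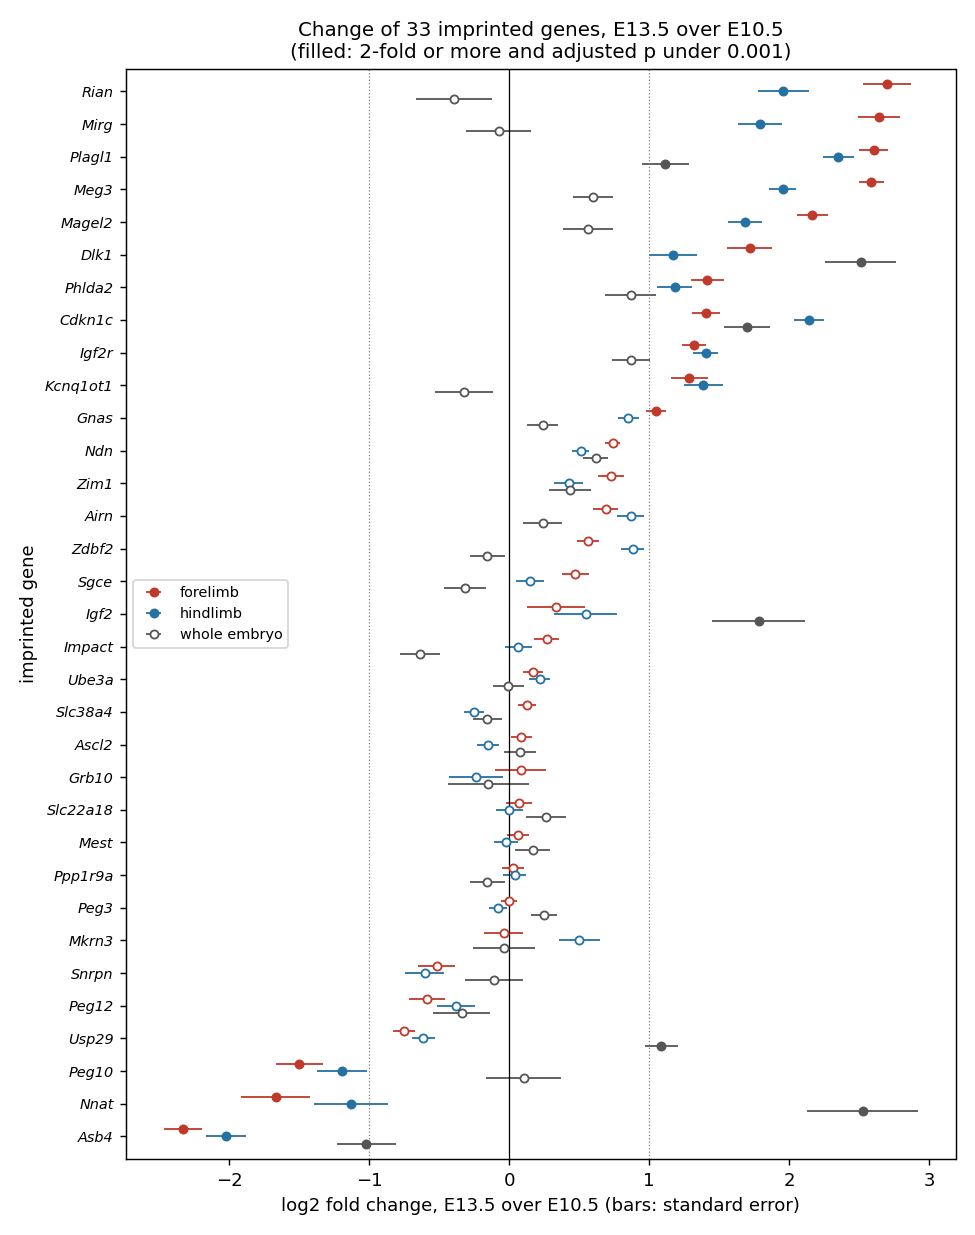
Log2 fold change of the 33 measured imprinted genes between E10.5 and E13.5 (x axis, E13.5 over E10.5; bars, standard error) in forelimb, hindlimb and whole embryo, ordered by the forelimb change, with filled points where the change was 2-fold or more at an adjusted p under 0.001. Forelimb and hindlimb points lie near each other for most genes, with Rian at 2.70 and 1.96 and Asb4 at -2.33 and -2.02, whereas Nnat was at 2.52 in whole embryo.

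The cellular makeup of the limb moved over the same interval. In forelimb, 8 of 10 skeletal muscle markers rose and 1 fell (median log2 change 5.33), 7 of 8 cartilage markers rose (2.86), 5 of 10 limb mesenchyme markers fell (-1.04) and 7 of 8 red blood cell markers fell (-2.76). The part of these shifts in the changes of the imprinted genes was not tested.

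Between neighbouring stages, the last day held the most calls in either limb. Between E12.5 and E13.5, 7 members rose and 1 fell in forelimb, where 2.71% of all genes were called in either direction and 1.42% were called up, and 6 rose in hindlimb, where 1.95% were called in either direction and 1.55% were called up. The same 6 genes, Meg3, Mirg, Rian, Dlk1, Kcnq1ot1 and Plagl1, rose in both limbs, and Magel2 rose in forelimb. A sign of RNA quality moved in the same step, the log2 difference of the 3′ over the 5′ probe set of Actb, which was 0.36 to 0.62 on the 10 limb arrays of E13.5, all above the 0.20 to 0.27 on the 10 of E12.5, and highest on array 4 of E13.5 hindlimb. It was 0.21 to 0.35 at E10.5, and at E11.5 it was 0.19 to 0.26 apart from forelimb 3 (0.70). Its part in the calls was not tested. Between E11.5 and E12.5, 0 members were called in forelimb (0.764% of all genes called), where 18 of 33 had an unadjusted p under 0.05 in limma and the largest changes were those of Asb4 (-0.79), Rian (0.72) and Dlk1 (0.56). Counts at an unadjusted p, here and below, were not taken over all genes, so they say nothing of the members as a set. In hindlimb 1 was called in that step (0.824% of all genes), Peg10, followed by Asb4 (-0.97) and Plagl1 (0.47) below 2-fold.

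Meg3, a long non-coding RNA that restrains cell growth in culture, rose strongly in both limbs. It read 9.73, 9.55, 9.68, 9.72 and 9.68 in E13.5 forelimb, against 7.25, 7.32, 7.12, 7.66 and 7.35 in E12.5 forelimb, and at E10.5 and E11.5 the forelimb arrays lay between 6.89 and 7.34. In hindlimb the arrays read 9.61, 9.40, 9.22, 9.19 and 9.40 at E13.5, against 7.05, 7.12, 7.05, 7.10 and 7.09 at E12.5. The E13.5 arrays of either limb lay above every earlier limb array. The fold change between E12.5 and E13.5 was 5.04 in forelimb (log2 2.33, standard error 0.09, adjusted p = 9.77e-24, limma) and 4.87 in hindlimb (log2 2.28, standard error 0.09, adjusted p = 3.56e-23, limma). Of its 11 probe sets, 10 were called up in forelimb. The log2 changes of all 11 ran from 0.86, short of 2-fold, to 3.54, so the size of the rise differed between probe sets and its direction did not.

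Rian, the non-coding RNA downstream of Meg3 that hosts small nucleolar RNAs, rose in the same step. In forelimb it read 10.07, 9.91, 9.99, 9.82 and 9.90 at E13.5 and 7.72, 7.70, 7.55, 8.34 and 8.25 at E12.5 (log2 change 2.03, standard error 0.17, adjusted p = 4.21e-13, limma). Hindlimb arrays read 9.84, 9.58, 9.52, 8.73 and 9.51 at E13.5 and 7.54, 7.71, 7.72, 7.59 and 7.71 at E12.5 (1.78, standard error 0.17, adjusted p = 2.49e-11, limma). Array 4 of E13.5 hindlimb was the lowest of its group and still above all E12.5 arrays. Mirg, the host of a large microRNA cluster, was at 8.95, 8.92, 8.81, 8.99 and 9.09 in E13.5 forelimb, against 6.81, 6.67, 6.27, 6.83 and 7.04 in E12.5 forelimb, a 4.69-fold rise (standard error of the log2 change 0.15, adjusted p = 4.65e-16, limma), and it rose 4.95-fold in hindlimb. All 4 probe sets of Rian and both of Mirg were called up in forelimb between E12.5 and E13.5.

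Dlk1, the paternally expressed neighbour of Meg3 that encodes a transmembrane protein of the Notch ligand type, rose less. Its levels were 10.002, 10.16, 10.06, 9.97 and 10.06 in E13.5 forelimb, against 8.89, 8.86, 8.80, 9.07 and 9.26 in E12.5 forelimb. In hindlimb it read 9.60, 9.88, 9.65, 9.96 and 9.52 at E13.5, against 8.14, 8.51, 8.67, 8.56 and 8.52 at E12.5. The groups did not overlap in either limb, and the log2 changes were 1.07 and 1.24 (standard error 0.16 each, adjusted p = 3.93e-07 and 3.05e-08, limma). All 4 measured members of the cluster, 3 of them maternally and 1 paternally expressed, were therefore called up in both limbs.

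**Figure D2:**
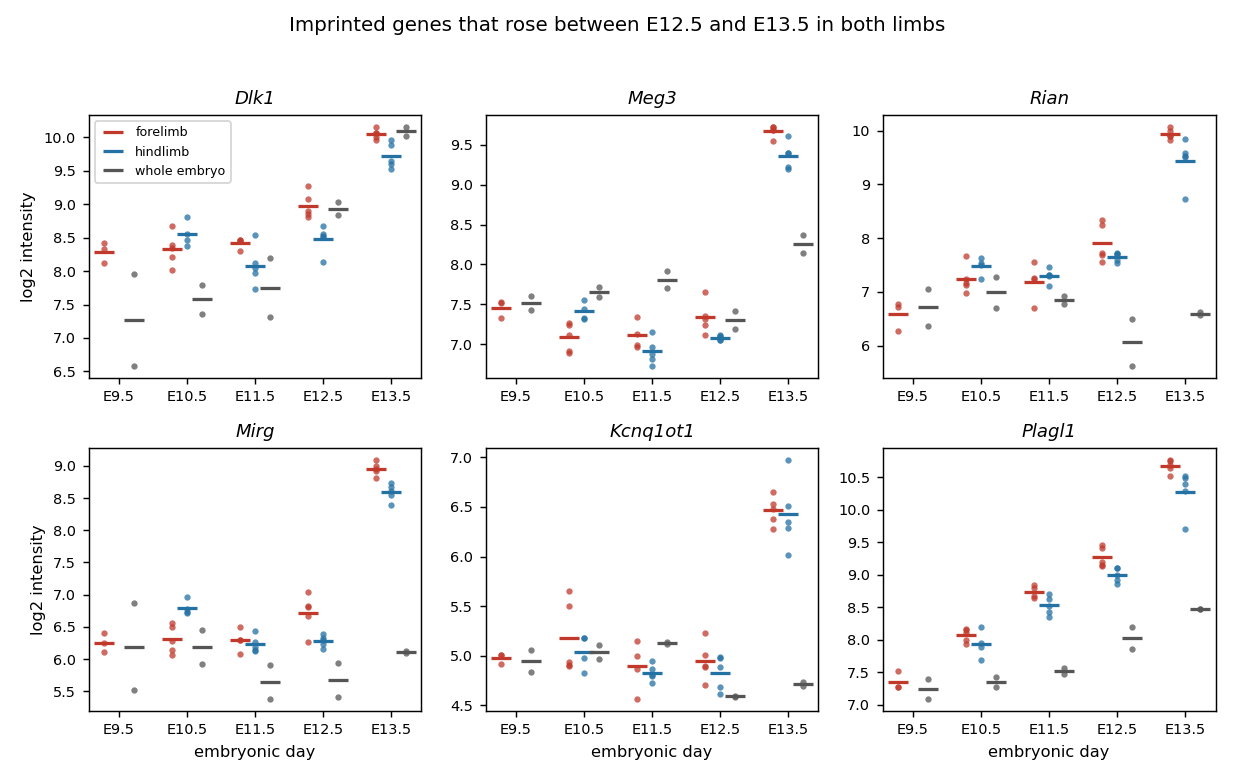
Log2 intensity of the 6 imprinted genes that rose between E12.5 and E13.5 in both limbs, by embryonic day (x axis), with a point for each array and a dash for each group mean of forelimb, hindlimb and whole embryo from left to right. The E13.5 limb arrays of Meg3 (9.19 to 9.73) and Mirg (8.39 to 9.09) stand above all other arrays of these genes, whereas Plagl1 climbs at each stage and Dlk1 reaches 10.02 and 10.15 in whole embryos too.

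Kcnq1ot1, the paternally expressed antisense RNA that silences the Kcnq1 cluster on chromosome 7, was dim before E13.5. It lay between 6.02 and 6.97 on the limb arrays of E13.5, all above those of E10.5, E11.5 and E12.5 at 4.57 to 5.65. The log2 change between E12.5 and E13.5 was 1.52 in forelimb (standard error 0.13, adjusted p = 6.69e-13, limma) and 1.60 in hindlimb (standard error 0.13, adjusted p = 2.94e-13, limma), and 4 of its 6 probe sets were called up in forelimb. Plagl1, a transcription factor that acts on other imprinted genes, rose at each stage, with forelimb means of 8.07 ± 0.10 (SD, n = 5) at E10.5, 8.74 ± 0.10 (n = 4) at E11.5, 9.27 ± 0.15 (n = 5) at E12.5 and 10.68 ± 0.10 (n = 5) at E13.5. In hindlimb the means were 7.93, 8.53, 8.998 and 10.28. Only the last step, of 1.41 in forelimb and 1.28 in hindlimb, passed the threshold, and the brightest of its 3 probe sets changed by 0.61 and 0.66 there, short of 2-fold. Magel2, a paternally expressed gene of the Snrpn-Ube3a cluster that encodes a regulator of ubiquitin ligases, read 8.38, 8.19, 8.05, 8.24 and 8.58 in E13.5 forelimb, against 6.77, 6.77, 6.59, 6.76 and 6.98 in E12.5 forelimb (1.51, standard error 0.11, adjusted p = 1.25e-14, limma). Its hindlimb change of 0.97 was just short of 2-fold (adjusted p = 2.11e-09, limma).

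Long non-coding RNAs as a class were compared after these values were seen. Of 1458 genes annotated as long non-coding, 26 (1.78%) were called up and 7 (0.48%) down between E12.5 and E13.5 in forelimb, and 28 (1.92%) up and 2 (0.137%) down in hindlimb. Among 16474 protein-coding genes the shares were 1.38% up and 1.38% down in forelimb and 1.51% up and 0.425% down in hindlimb. Of the 5 measured non-coding members, 4 rose in each limb, and Airn, the antisense RNA of Igf2r, was at 0.54 in forelimb and 0.76 in hindlimb, short of 2-fold. Malat1, a nuclear long non-coding RNA that is not imprinted, rose as well, by 1.66 in forelimb (standard error 0.24, adjusted p = 2.22e-07, limma) and 1.57 in hindlimb (adjusted p = 1.00e-06, limma). Single dim probe sets of Ppp1r9a, a neuronal scaffold protein gene, and of Gnas also rose in this step, by 1.52 and 1.27 in forelimb, while the genes as a whole were at 0.59 and 0.66. In the same step 6 of 8 cartilage markers rose in forelimb (median log2 change 1.87) and 6 of 8 in hindlimb (1.88). Limb mesenchyme markers fell, 6 of 10 in forelimb (median -1.13) and 1 of 10 in hindlimb (-0.57), and 3 of 8 red blood cell markers fell in each limb (-0.95 and -0.90). Of 10 skeletal muscle markers, 2 rose in forelimb (0.65) and 3 in hindlimb (0.77). The part of these markers in the rise of the non-coding RNAs was not tested.

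A further group rose over the interval with no call in the last step. Cdkn1c, a maternally expressed inhibitor of the cell cycle needed for normal cartilage and bone, read 13.45, 13.34, 13.41, 13.40 and 13.31 in E13.5 forelimb, against 12.02, 12.13, 11.67, 11.79 and 12.27 in E10.5 forelimb (log2 change 1.41, standard error 0.10, adjusted p = 7.90e-16, limma). In hindlimb the change was 2.14 (standard error 0.11, adjusted p = 5.62e-21, limma), and 1.51 of it came between E10.5 and E11.5, the only member called in that step in hindlimb (2.32% of all genes), ahead of Igf2 (0.80) and Phlda2 (0.62). Igf2r, which encodes the receptor that clears IGF2, rose by 1.32 in forelimb and 1.40 in hindlimb (standard error 0.09 each), with no single step past 2-fold, and the last step was the largest (0.78 and 0.80). Phlda2, a maternally expressed gene that limits placental growth, rose by 1.25 between E10.5 and E11.5 in forelimb (adjusted p = 5.02e-11, limma) and by 1.18 between E10.5 and E13.5 in hindlimb. Gnas, which encodes the stimulatory G protein subunit and overlapping transcripts, was called in forelimb (1.05, of which 0.66 came in the last step) and not in hindlimb (0.85). Its 5 probe sets ran from -0.27 to 2.98 in forelimb, and the brightest changed by 0.37.

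Asb4, Nnat and Peg10 fell. Asb4, a maternally expressed substrate receptor of ubiquitin ligases found in vascular precursors, read 9.92, 9.38, 9.80, 9.60 and 9.96 in E13.5 forelimb, against 12.11, 11.93, 12.08, 12.10 and 12.11 in E10.5 forelimb, a 5.04-fold decrease (log2 -2.33, standard error 0.13, adjusted p = 2.87e-19, limma). In hindlimb it read 9.87, 9.47, 9.58, 9.53 and 9.59 at E13.5, against 11.75, 11.72, 11.34 and 11.73 at E10.5, a 4.07-fold decrease. The groups did not overlap in either limb. Between E10.5 and E11.5 the fall passed the threshold in forelimb (-1.11, adjusted p = 4.25e-08, limma). Forelimb means were 12.07, 10.95, 10.16 and 9.73 from E10.5 to E13.5 and hindlimb means were 11.64, 11.47, 10.5004 and 9.61, and the difference between the limbs in the first step was not tested.

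Peg10, a paternally expressed gene derived from a retrotransposon and needed for the placenta, was dimmer. It fell by 1.12 on the log2 scale between E10.5 and E11.5 in forelimb (adjusted p = 4.06e-06, limma), where 3 members were called, Peg10, Asb4 and Phlda2, against 2.07% of all genes. In hindlimb it fell by 1.13 between E11.5 and E12.5 (adjusted p = 2.86e-06, limma). Its E11.5 forelimb arrays read 5.53, 5.62, 5.11 and 5.32, all below the E10.5 forelimb arrays at 6.50, 6.32, 6.43, 7.01 and 6.30. Without array 4 of E10.5 forelimb the first of these changes was -0.99 and no longer 2-fold. Nnat, which was among the brightest genes of the early limb, read 11.55, 11.27, 11.45, 11.22 and 11.76 in E13.5 forelimb, against 13.07, 12.81, 12.83, 12.73 and 12.82 in E12.5 forelimb (-1.40, standard error 0.25, adjusted p = 8.21e-06, limma). Its hindlimb change from E12.5 to E13.5 was -0.98. Over E10.5 to E13.5 it fell by 1.13 on the log2 scale in hindlimb (adjusted p = 3.03e-04, limma), a call lost without E10.5 hindlimb 2 (-1.11), E10.5 hindlimb 4 (-1.07) or E13.5 hindlimb 4 (-1.09).

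**Figure D3:**
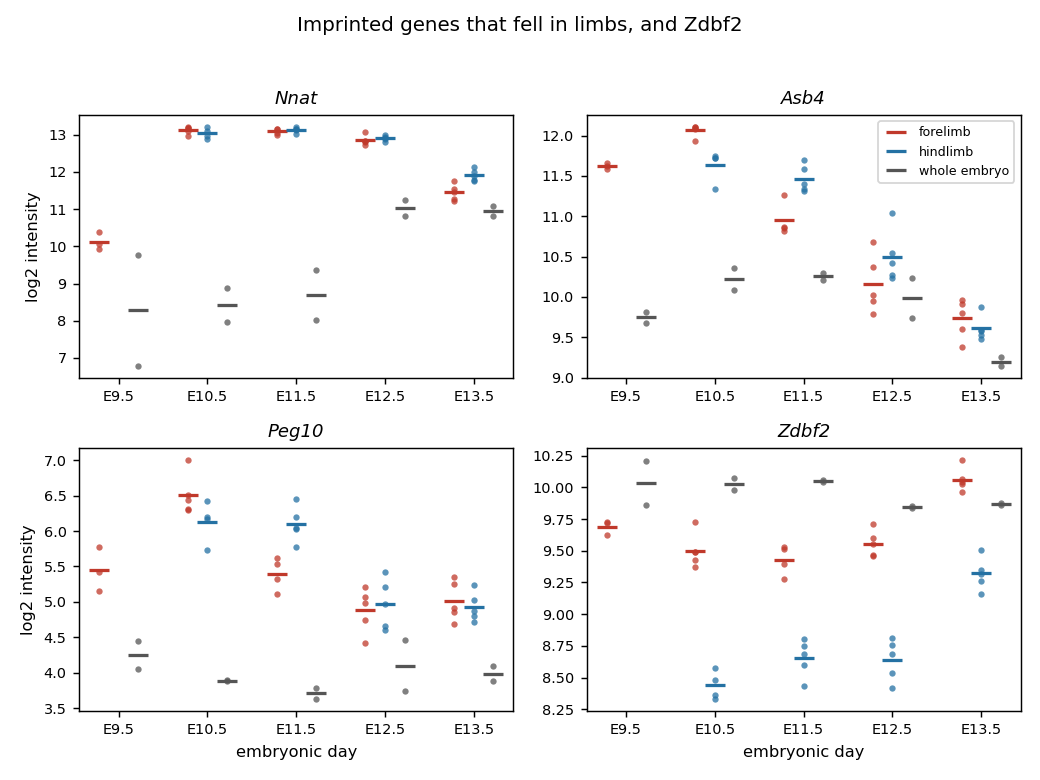
Log2 intensity of Nnat, Asb4 and Peg10, which fell in both limbs, and of Zdbf2, by embryonic day (x axis), with a point for each array and a dash for each group mean of forelimb, hindlimb and whole embryo from left to right. Nnat lies near 13 in limbs at E10.5, E11.5 and E12.5 and at 11.22 to 12.15 at E13.5, and Zdbf2 forelimb arrays lie above the hindlimb arrays at each stage.

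The whole-embryo arrays showed another set of changes over the same days. Between E10.5 and E13.5, 6 members rose and 1 fell, where 11.2% of all genes were called and 9.88% were called up. Nnat rose by 2.52 (standard error 0.39), Dlk1 by 2.51, Igf2 by 1.78, Cdkn1c by 1.70, Plagl1 by 1.12 and Usp29, a paternally expressed deubiquitinase gene, by 1.09, and Asb4 fell by 1.02. With 2 arrays a stage, several of these rested on 1 array. Without E13.5 whole embryo 2, Igf2 (1.64), Usp29 (0.93) and Asb4 (-0.97) were not called. The call of Igf2 was also lost without E10.5 whole embryo 1 (1.62), and that of Asb4 without E10.5 whole embryo 2 (-0.88) or E13.5 whole embryo 1 (-1.07). The brightest probe sets of Asb4 (-0.75) and Usp29 (0.36) were not called, nor was Plagl1 after quantile normalization (0.84). Meg3 (0.60), Rian (-0.39), Mirg (-0.08) and Kcnq1ot1 (-0.33), which rose in limbs, were not called in whole embryos. The mean of Rian joins probe sets called in opposite directions there, of which the brightest rose by 2.07 and another fell by 1.43, while the other two were at -1.68 and -0.53. Liver (10 of 10), neural (5 of 10) and cartilage (7 of 8) markers rose in whole embryos in this interval.

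The difference between the limb change and the whole-embryo change was tested as a contrast, in which an offset between the array sets that adds equally at both stages cancels. For forelimb, 6 members rose more and 4 less than in whole embryo, where 12.3% of all genes were called, and for hindlimb 7 rose more and 4 less, where 12% were called. The contrast was 3.09 for Rian, 2.72 for Mirg, 1.98 for Meg3, 1.61 for Kcnq1ot1, 1.60 for Magel2 and 1.49 for Plagl1 in forelimb, and -4.19 for Nnat, -1.84 for Usp29, -1.60 for Peg10 and -1.31 for Asb4. In hindlimb the same 6 genes and Zdbf2 (1.04) were higher, and Nnat (-3.65), Usp29 (-1.70), Dlk1 (-1.34) and Peg10 (-1.30) were lower. Both contrasts use the same whole-embryo arrays. In forelimb, the call for Asb4 was lost without E10.5 whole embryo 1 (-1.18) and that for Peg10 without E13.5 whole embryo 1 (-1.49). In hindlimb, the calls for Dlk1 (-1.26) and Peg10 (-1.28) were lost without array 3 of E10.5 hindlimb, the array with high neural markers. Dlk1 was also lost without E10.5 whole embryo 1 (-1.12) or E13.5 whole embryo 1 (-1.41) or 2 (-1.27), Zdbf2 without E13.5 hindlimb 4 or E10.5 whole embryo 1 (0.99 each), and Magel2 (1.12) without E10.5 hindlimb 1 (0.97), E10.5 whole embryo 2 (0.99) or E13.5 whole embryo 1 (1.01). Peg10 in hindlimb lay so near the threshold that it was lost without E10.5 hindlimb 2, 3 or 4, E13.5 hindlimb 2, 3, 4 or 5, or any 1 of the 4 whole embryos (-1.19 to -1.41). For Rian the contrast differed between probe sets, and its brightest one gave 0.20 in forelimb and -0.25 in hindlimb. That of Plagl1 gave 0.61 and 0.74, and neither was called. After quantile normalization the calls for Asb4 in forelimb (-0.88) and Dlk1 in hindlimb (-0.89) were lost. The forelimb change less the hindlimb change was called for 0 members, where 0.918% of all genes were called and 13 of 33 members had an unadjusted p under 0.05 in limma. Its largest values were those of Mirg (0.85), Rian (0.74) and Cdkn1c (-0.74).

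Forelimb and hindlimb of the same stage differed in 1 member. Zdbf2, a paternally expressed zinc finger gene, was 2.09-fold higher in forelimb at E10.5 (log2 1.06, standard error 0.08, adjusted p = 8.17e-13, limma), where 0.566% of all genes were called. It read 9.72, 9.43, 9.49, 9.49 and 9.37 in forelimb and 8.36, 8.48, 8.58 and 8.33 in hindlimb. The hindlimb arrays all lay below the forelimb arrays. At E11.5, E12.5 and E13.5, 0 members were called, against 0.412%, 0.506% and 0.286% of all genes, and 8, 13 and 13 of 33 had an unadjusted p under 0.05 in limma. The forelimb and hindlimb arrays of Zdbf2 still did not overlap, with differences of 0.78, 0.92 and 0.74 (adjusted p = 8.73e-09, 1.60e-11 and 7.10e-09, limma). Cdkn1c was the next in size at E10.5 (0.84, adjusted p = 2.54e-07, limma), followed by Igf2 (0.54), Peg10 (-0.71) and Asb4 (-0.51) at E11.5, Phlda2 (0.52) and Dlk1 (0.50) at E12.5, and Magel2 (0.69, adjusted p = 3.91e-05, limma) and Rian (0.50) at E13.5, all below 2-fold. The genes with the largest rise in the last day did not reach 2-fold between the limbs at E13.5: Meg3 was at 0.31 and Mirg at 0.36 beside Rian.

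Forelimb was also compared with hindlimb of the next stage, since hindlimb buds form later. E10.5 forelimb over E11.5 hindlimb and E11.5 forelimb over E12.5 hindlimb had 0 called members, where 0.989% and 0.28% of all genes were called and 15 and 12 of 33 members had an unadjusted p under 0.05 in limma. Zdbf2 was the largest in both (0.85 and 0.79), followed by Phlda2 (-0.75) and Cdkn1c (-0.67) in the first and by Rian (-0.47) and Asb4 (0.45) in the second. E12.5 forelimb over E13.5 hindlimb had 5, all lower in E12.5 forelimb, where 1.46% were called: Meg3 (-2.03), Mirg (-1.87), Rian (-1.52), Kcnq1ot1 (-1.48) and Plagl1 (-1.01). Plagl1 sat at the threshold and was short of it without E12.5 forelimb 1, 2 or 3 or E13.5 hindlimb 1, 2 or 3 (-0.95 to -0.99), and its brightest probe set gave -0.49. The brightest probe set of Rian gave -0.93, and its call was lost.

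Forelimb at E9.5 was compared with whole embryo of that stage within the set of 13 arrays. Dap and Gapdh readings differed between forelimb and whole embryo there too. 4 members were up-regulated and 1 down-regulated, where 3.69% of all genes were called. Asb4 read 11.62, 11.58 and 11.66 in forelimb, against 9.82 and 9.68 in whole embryo (log2 1.88, standard error 0.19, adjusted p = 3.32e-10, limma), and Phlda2 read 6.54, 6.61 and 6.54, against 7.89 and 7.76 (-1.26, standard error 0.17, adjusted p = 9.58e-08, limma). For the other 3 genes the whole embryos differed from each other. Nnat read 10.06, 9.93 and 10.39 in forelimb, against 9.77 and 6.79 in whole embryo (1.85), Dlk1 read 8.42, 8.12 and 8.33, against 7.95 and 6.59 (1.02), and Peg10 read 5.78, 5.43 and 5.16, against 4.44 and 4.05 (1.21). Without whole embryo 2, Nnat (0.36), Dlk1 (0.34) and Peg10 (1.01) were no longer called. Dlk1 (0.96) and Peg10 (1.04) were not called without forelimb 1 either, nor Dlk1 (1.00) and Nnat (1.72) without forelimb 3. Asb4 and Phlda2 kept their calls without any one array. Fitted on these 5 arrays alone, 0 members passed, with 12 at an unadjusted p under 0.05 in limma and adjusted p = 0.0017 for Asb4.

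From E10.5, limb over whole embryo crossed the array sets. At E10.5, 7 members were up-regulated and 1 down-regulated in forelimb (13.9% of all genes called) and 7 and 2 in hindlimb (13.2%). At E11.5 the counts were 7 and 1 in forelimb (15.3%) and 9 and 2 in hindlimb (15.7%), and at E12.5 they were 7 and 1 (14%) and 4 and 1 (12.54%). At E13.5, 12 members were up-regulated and 0 down-regulated in forelimb, where 13.7% of all genes were called and 5.54% were called up, and 8 and 0 in hindlimb, where 14.4% were called and 6.1% were called up. In all, 22 of the 33 members were called in at least 1 of the 9 comparisons of a limb with whole embryo, as were 30.1% of all genes. Neural marker sums were 8.04 to 10.6 in limbs from E10.5 and 11.4 to 13.97 in whole embryos. The part of tissue makeup in these differences was not tested.

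**Figure D4:**
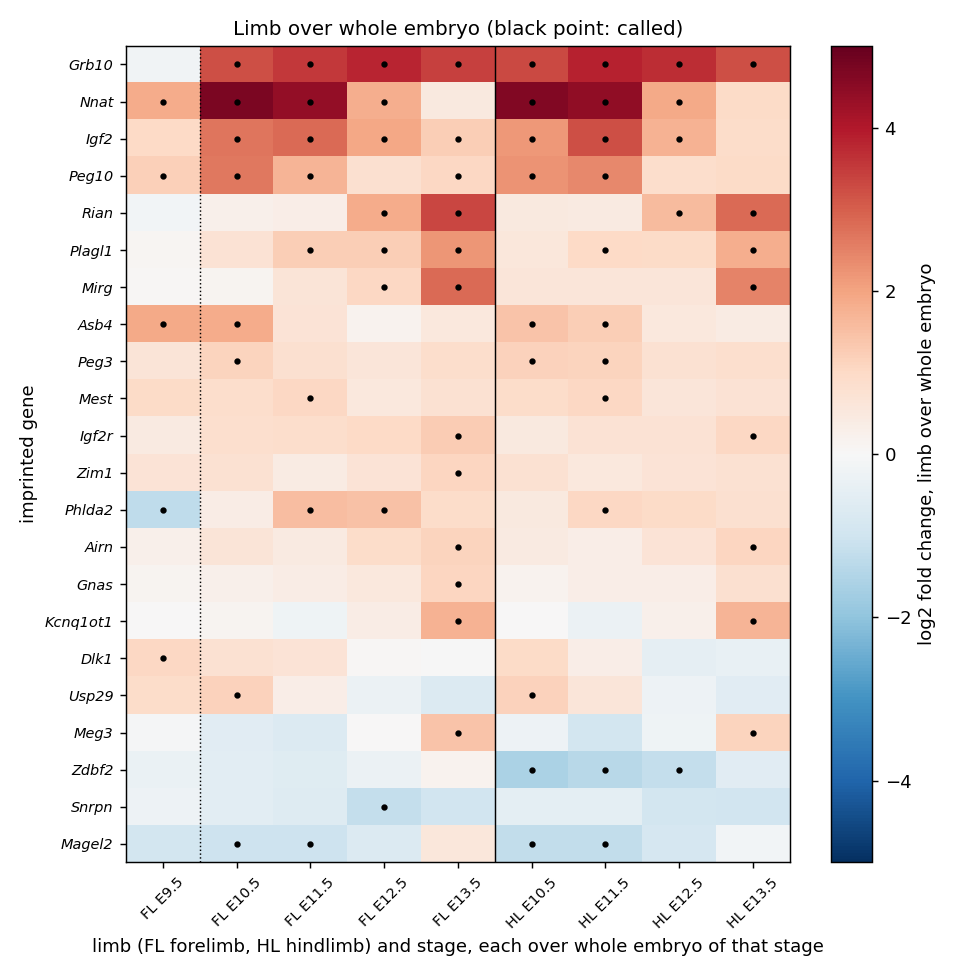
Heat map of the log2 fold change of limb over whole embryo of the same stage (colour scale) for the 22 imprinted genes called in at least 1 of 9 comparisons (columns, FL forelimb and HL hindlimb), with a black point where a gene was called. The dotted line separates E9.5 forelimb, the only column that does not cross array sets. Dap readings differed between forelimb and whole embryo there too. Nnat reaches 4.70 at E10.5, Grb10 is called in all 8 later columns, and Rian, Mirg and Kcnq1ot1 are highest at E13.5.

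Nnat and Igf2 were highest over whole embryo in the early limb. In E10.5 forelimb, Nnat read 13.09, 12.96, 13.21, 13.17 and 13.17, against 7.98 and 8.87 in whole embryo, a 25.9-fold difference (log2 4.70, standard error 0.33, adjusted p = 3.68e-16, limma), and in E10.5 hindlimb the difference was 24.6-fold. It was 4.40 and 4.45 on the log2 scale at E11.5 and 1.83 and 1.88 at E12.5, in forelimb and hindlimb, and 0.50 and 0.97 at E13.5, where it was not called. Without E12.5 whole embryo 1 the E12.5 calls were lost (1.62 and 1.66). Igf2 was higher by 2.69 and 2.15 at the first of these stages, by 2.83 and 3.21 at E11.5 and by 1.93 and 1.76 at E12.5 in forelimb and hindlimb, and 1.24 in E13.5 forelimb. Its E13.5 forelimb call was lost without whole embryo 1 (1.09) or 2 (1.39), and its E12.5 hindlimb call without whole embryo 1 (1.20). Of its 2 probe sets, the brighter one differed by 0.45 and the dimmer one by 2.03 in E13.5 forelimb, and with the brighter one alone the E12.5 calls were lost too (0.92 in forelimb, 0.81 in hindlimb).

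Peg10 was up-regulated over whole embryo in both limbs at E10.5 (2.62, hindlimb 2.24) and E11.5 (1.68, hindlimb 2.39) and in E13.5 forelimb (1.02, lost without E13.5 forelimb 1 or 5 or either whole embryo, at 0.91 to 1.14). Asb4 was up-regulated in forelimb at E10.5 (1.85) and in hindlimb both at E10.5 (1.42) and later at E11.5 (1.21). The hindlimb calls were lost with the brightest probe set of Asb4 (0.74 and 0.43) and after quantile normalization (0.95 and 0.71). Peg3, a paternally expressed zinc finger gene, was higher by 1.11 in E10.5 forelimb, by 1.16 in E10.5 hindlimb and by 1.12 in E11.5 hindlimb, and Usp29, its divergently transcribed neighbour, by 1.14 in both limbs at E10.5. After quantile normalization the Peg3 calls were lost, at 0.62, 0.68 and 0.62. Mest was called at E11.5 only (1.04 and 1.03), and both calls were lost without E11.5 whole embryo 1 (0.74 and 0.73) or after quantile normalization (0.32 and 0.29). Phlda2 was higher at E11.5 (1.55 in forelimb, 1.05 in hindlimb) and in E12.5 forelimb (1.47), the hindlimb call being lost without E11.5 whole embryo 2 (0.95) or after quantile normalization (0.94). Plagl1 was called at E11.5 in both limbs (1.22 and 1.01) and in forelimb at E12.5 (1.24). These 3 calls were lost with its brightest probe set (0.63, 0.35 and -0.000533) and after quantile normalization (0.75, 0.52 and 0.98). The E11.5 hindlimb calls of Plagl1 (0.96) and Peg3 (1.00) were lost without E11.5 whole embryo 1, and that of Plagl1 also without E11.5 hindlimb 1 (0.97) or 2 (0.99).

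At E13.5 the non-coding RNAs Rian, Mirg, Kcnq1ot1, Meg3 and Airn were higher in both limbs than in whole embryo. Rian was 3.34 and 2.84 above whole embryo in forelimb and hindlimb, Mirg 2.84 and 2.47, Kcnq1ot1 1.75 and 1.71, Meg3 1.42 and 1.11 and Airn 1.11 and 1.08. Among protein-coding genes, Grb10 was higher by 3.44 and 3.23 over probe sets that disagreed, Plagl1 was higher by 2.21 and 1.81 and Igf2r by 1.28 and 1.02 in forelimb and hindlimb, and Gnas by 1.08 and Zim1, a maternally expressed zinc finger gene, by 1.07 in forelimb. With its brightest probe set Gnas was at 0.059 and not called. The hindlimb call of Igf2r was lost without E13.5 hindlimb 1, 2 or 5 or whole embryo 2 (0.96 to 1.00), and in forelimb its 2 probe sets gave -0.04 and 2.60. The brightest probe set of Plagl1 differed by 0.19 in forelimb and 0.07 in hindlimb, while all 4 of Rian were called up in forelimb. At E12.5 Rian was already called (1.85 and 1.59), and Mirg in forelimb (1.05), a call lost without E12.5 forelimb 5 (0.97) or E12.5 whole embryo 2 (0.78).

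Fewer members were lower in limb than in whole embryo. Zdbf2 was lower in hindlimb at E10.5 (-1.59), E11.5 (-1.40) and E12.5 (-1.20) and was not called in forelimb. Magel2 was lower in E10.5 forelimb (-1.04) and hindlimb (-1.25) and in E11.5 forelimb (-1.03) and hindlimb (-1.22), the forelimb calls being lost without whole embryo 2 of E10.5 (-0.91) or of E11.5 (-0.84), or without E11.5 forelimb 1 (-0.998). Snrpn, which encodes a splicing protein, was lower in E12.5 forelimb (-1.19), a call lost without E12.5 whole embryo 1 (-0.64). It was read from 1 probe set, and 6 others that carry several symbols were left out. That value therefore does not speak for the whole locus.

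Probe sets of a gene disagreed often in comparisons that cross the array sets, though not only there. Probe sets were taken to disagree where their log2 changes lay more than 1 apart, or had opposite signs with at least 1 of them called. Among the 22 genes with 2 or more probe sets, 14 to 19 genes disagreed in the 8 comparisons of limb with whole embryo from E10.5, against 9 in E9.5 forelimb over whole embryo and 0 or 1 in forelimb over hindlimb of the same stage. Between E10.5 and E13.5, 8 disagreed in forelimb, 10 in hindlimb and 14 in whole embryo. For 9 of the 96 probe sets, in 7 genes, the ranges of the 38 later limb arrays and of the other 13 arrays did not overlap, and 8 of these 9 were higher on the limb arrays. Neither these counts nor those of disagreement were taken over all genes and probe sets, so they say nothing particular to the members.

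Grb10, a maternally expressed adaptor that restrains insulin and IGF signalling, is the clearest case. Averaged over its 3 probe sets it was 3.20 to 3.84 above whole embryo in all 8 comparisons from E10.5, and at E9.5 it read 7.70, 7.80 and 7.74 in forelimb, against 8.03 and 7.78 in whole embryo. Its brightest probe set differed by -0.34 to 0.36 in the same 8 comparisons, with group means of 12.51 to 13.28 in all 14 groups. The other probe sets of Grb10 read 9.35 to 11.87 and 6.83 to 9.79 on the 38 limb arrays and 4.43 to 5.39 and 4.54 to 5.98 on the other 13. Whether the higher mean in limb belongs to the tissue or to the array set cannot be told apart.

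**Figure D5:**
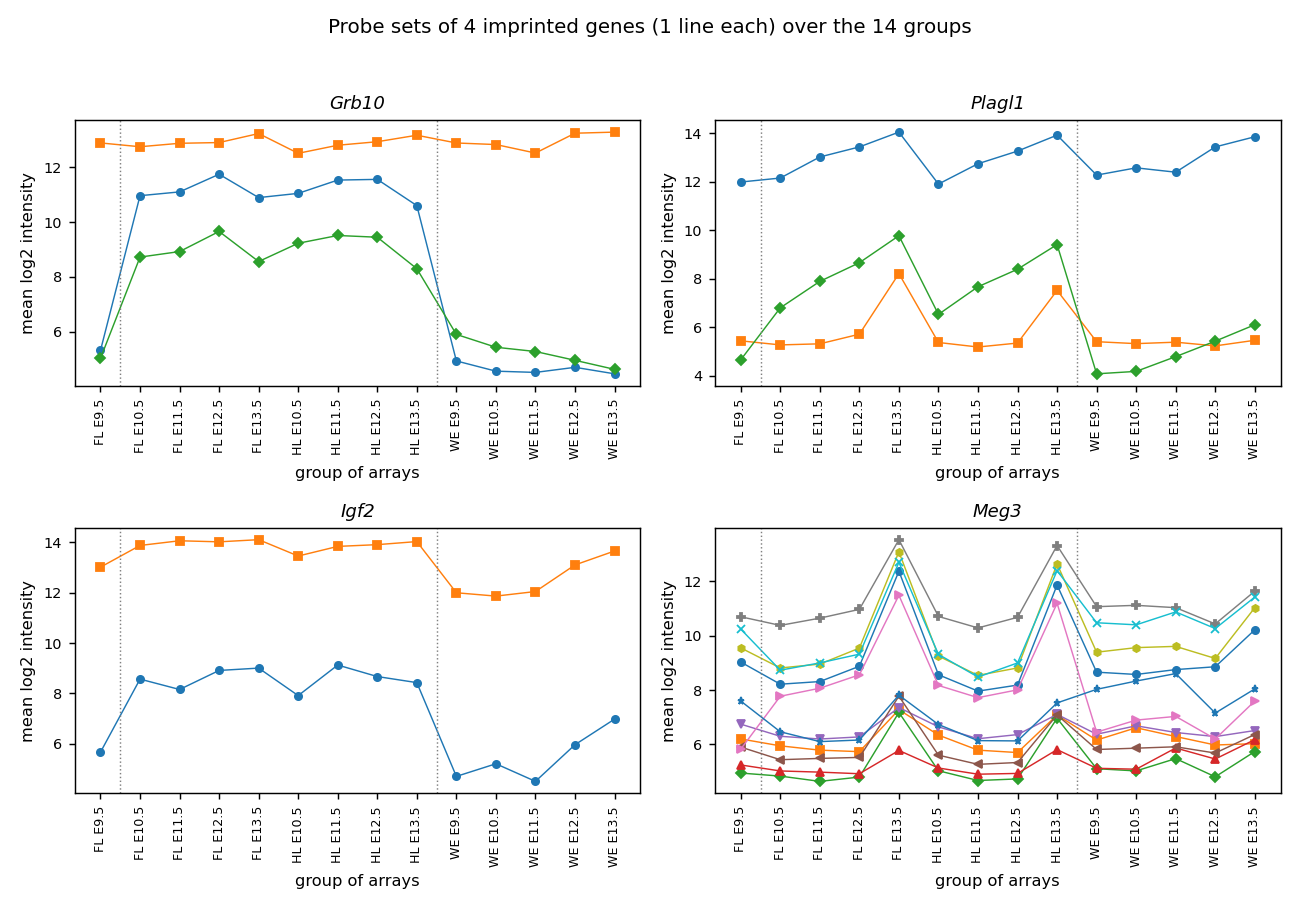
Group means of log2 intensity for each probe set (1 line each) of Grb10, Plagl1, Igf2 and Meg3 over the 14 groups (x axis; FL forelimb, HL hindlimb, then the 5 whole-embryo groups), with dotted lines between the 2 array sets. The upper Grb10 line stays at 12.51 to 13.28 while the other 2 step at the dotted lines, and the Meg3 lines rise together in both limbs at E13.5.

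Other genes of imprinting and growth were read beside the members. Of 32 measured imprinted genes outside the list, 5 rose and 3 fell in forelimb between E10.5 and E13.5, among them Dcn, a matrix proteoglycan (4.09), and Gatm, an enzyme of creatine synthesis (2.93), and Casd1, a sialic acid acetyltransferase (-1.37). In this comparison 5.43% of all genes were called up and 10.6% in either direction. Of 19 regulators of imprinting, Tet2, a methylcytosine dioxygenase, rose (1.11). The DNA methyltransferase Dnmt3b (-2.04) and Uhrf1, a cofactor of maintenance methylation (-1.24), fell, while the imprint-protecting factors Zfp57 (-0.02) and Trim28 (-0.39) were not called. Of 16 genes of the IGF pathway, the binding protein genes Igfbp1 (2.14), Igfbp3 (2.02) and Igfbp5 (1.81) and the growth factor Igf1 (1.79) rose, and the RNA-binding protein gene Igf2bp1 fell (-1.37). Igf2 itself changed by 0.33 in forelimb and 0.54 in hindlimb and was not called.

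Of the measured members, 23 were called in at least 1 of the 25 comparisons of 2 groups, as were 36.9% of all genes. The 10 without a call were Ascl2, Slc22a18, Sgce, Ppp1r9a, Ndn, Mkrn3, Peg12, Ube3a, Impact and Slc38a4. Of these, Slc38a4, an amino acid transporter (mean 9.54), and Ndn, a growth suppressor of neurons and muscle (8.57), were bright on the limb arrays, and Ascl2 (3.501) was dim, where a difference may not have been detectable. Probe sets of Ube3a were called in opposite directions over whole embryo at E11.5 in both limbs. Those of Ppp1r9a were so in hindlimb between E10.5 and E13.5. The means of these genes join opposing changes there. In the 8 comparisons of limb stages, 14 of the 33 were called at least once, as were 14.5% of all genes, and 19 were not. Ndn, the neighbour of Magel2, rose by 0.74 in forelimb between E10.5 and E13.5, short of 2-fold, beside the 2.17 of Magel2. The mean of Ndn joins bright probe sets with dim ones near background, which lower both its level and its change. In forelimb its brightest probe set read 11.51 at E10.5 and 12.51 at E13.5, and a dim one read 2.96 and 3.31.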

How the data were processed

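Total RNA was amplified and labelled in 2 cycles and hybridised to whole-genome mouse expression arrays of Affymetrix. RMA at default settings (version not given in the sources used here) was the authors' method for background, normalization and probe set summary, and a defect on 1 whole-embryo array of E12.5 was replaced by replicate medians. What they deposited are linear intensities, of which log2 was taken first. 45101 probe sets were present on 51 arrays, and none of the arrays was left out. Of 35890 probe sets with an entry in the probe table, 34958 with 1 gene symbol were averaged per gene, giving 18194 genes, and 932 with several symbols were left out. Log2 values ran from 2.29 to 14.79 with a median of 5.31, and the number of arrays limits the precision.

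Groups follow the titles of the arrays. limma 3.58.1 in R 4.3.3 (statmod 1.5.0) was fitted to all 14 groups, with 37 residual degrees of freedom and Benjamini-Hochberg adjustment within a comparison. The script was tested on simulated data. Members and lists were chosen with earlier results of these data known, so counts describe these genes and support nothing on their own. In each comparison the text names every called member or, where fewer than 3 were called, the largest changes up to 3, with values by array for those the results turn on, and of other lists up to 4 called genes of largest change. Named outside that rule, after their values were seen, are Malat1, Ppp1r9a, Zfp57, Trim28, Ndn and the dim probe sets of Gnas. The alternatives tried were the brightest probe set per gene, each comparison on its own groups, quantile normalization, a filter on dim genes, a replicate block, leaving out the 2 arrays with a second label and leaving out each array in turn.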

Additional observations from a re-analysis of the deposited data

Results flagged for a closer look

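Within groups of 4 or 5 limb arrays, 264 combinations of a gene and a group were checked for 1 array lying far from the rest, and 18 stood out by Dixon's criterion. Chance flags about 1 in 20 groups. The widest gap was that of Grb10, at 9.99 on E11.5 forelimb 3 with the other 3 arrays at 11.2 to 11.4, followed by Plagl1 at 9.71 on E13.5 hindlimb 4, with the nearest array at 10.3. Asb4 was low at 11.9 on E10.5 forelimb 2 and at 11.3 on E10.5 hindlimb 3, and high at 11.3 on E11.5 forelimb 1. Zim1 was high at 5.91 on E12.5 forelimb 1 and at 5.88 on E10.5 hindlimb 2. Peg12, a paternally expressed gene of the Snrpn-Ube3a cluster, was low at 6.14 on E11.5 forelimb 3 and high at 6.65 on E11.5 hindlimb 5, 1 of the arrays with a second label. The other high values were Cdkn1c at 13.4 on E13.5 hindlimb 2, Mest at 13.6 on E10.5 hindlimb 1 and Ube3a at 7.16 on E12.5 hindlimb 3. The other low values were Phlda2 at 7.25 on E12.5 forelimb 1, Dlk1 at 8.29 on E11.5 forelimb 2, Meg3 at 9.55 on E13.5 forelimb 2, Sgce at 7.18 on E10.5 hindlimb 4, Gnas at 6.01 on E12.5 hindlimb 1 and Grb10 at 10.7 on E10.5 hindlimb 1. Array 4 of E13.5 hindlimb was also the lowest of its group for Rian, Kcnq1ot1 and Igf2.

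The change between E10.5 and E13.5 differed between forelimb and whole embryo, in limma's test of the difference, in 10 genes. The difference was 3.09 for Rian (adjusted p = 1.49e-10), 2.72 for Mirg (8.86e-11), 1.98 for Meg3 (5.99e-13), 1.61 for Kcnq1ot1 (7.84e-07), 1.60 for Magel2 (3.78e-08) and 1.49 for Plagl1 (4.10e-08). It was -4.19 for Nnat (adjusted p = 8.35e-10), -1.84 for Usp29 (3.99e-14), -1.60 for Peg10 (5.39e-05) and -1.31 for Asb4 (3.66e-05). Between hindlimb and whole embryo it was 2.35 for Rian, 1.87 for Mirg, 1.71 for Kcnq1ot1, 1.35 for Meg3, 1.23 for Plagl1, 1.12 for Magel2 and 1.04 for Zdbf2, and -3.65 for Nnat, -1.70 for Usp29, -1.34 for Dlk1 and -1.30 for Peg10. These differences rest on 2 whole embryos a stage.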

How the results depend on the processing

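Counts of called imprinted genes in 28 comparisons stayed within 1.5 times of those reported under most alternatives. With the brightest probe set in place of the mean, E9.5 forelimb over whole embryo had 8 and E12.5 forelimb over E13.5 hindlimb had 3. Fitted on its own groups, E9.5 forelimb over whole embryo had 0. After quantile normalization, E11.5 hindlimb over whole embryo had 7, with 4 higher and 3 lower, against 9 higher and 2 lower as deposited. Leaving out 1 array at a time gave 3 to 7 members for E9.5 forelimb over whole embryo, 5 to 9 for E12.5 hindlimb over whole embryo (9 when E12.5 whole embryo 2 was left out), 4 to 6 for whole embryo between E10.5 and E13.5 (4 without E13.5 whole embryo 2) and 1 to 2 for hindlimb between E11.5 and E12.5 (2 without E11.5 hindlimb 2 or E12.5 hindlimb 1). With the brightest probe set the direction turned for 8 calls. Grb10 over whole embryo was then -0.080 in E10.5 forelimb, -0.32 in E10.5 hindlimb, -0.34 in E12.5 forelimb, -0.31 in E12.5 hindlimb, -0.052 in E13.5 forelimb and -0.11 in E13.5 hindlimb, Plagl1 in E12.5 forelimb over whole embryo was -0.000533, and the hindlimb change of Rian less that of whole embryo was -0.25. The cause was not tested. A further 22 calls were lost with the brightest probe set, 17 after quantile normalization, 11 on own groups and 2 without the arrays with a second label, and 0 with the 7156 dimmest genes left out. Quantile normalization moved the median change of all genes in whole embryo to -0.10, against 0.05 as deposited.

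The labels do not say that a number marks a shared embryo, and the values do not settle whether numbers pair forelimb with hindlimb: 9 of 18 same-numbered pairs (-0.11 to 0.35) and 12 of 72 others correlated above 0.1, and 5 of 18 forelimb and 7 of 18 hindlimb arrays correlated best with their own number. Stage and number were also fitted as a random block (estimated correlation 0.012) or as a fixed block. The random block took in the whole embryos, which share stage and number with limb arrays. The value of 0.012 is therefore not an estimate of the pairing of forelimb with hindlimb alone. With either block, 1 member, Zdbf2, was called in forelimb over hindlimb at E10.5, as without the block. The block changed no other call. The 2 whole embryos a stage, the single litter of each stage and the array sets limit all comparisons with whole embryo, and dim genes such as Ascl2 lie near background, where changes are compressed.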

Other observations

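Between E10.5 and E13.5, 5 of the 32 measured imprinted genes outside the list rose and 1 fell in hindlimb, and 12 rose and 0 fell in whole embryos. Of all genes, 5.99% were called up and 11.1% in either direction in hindlimb, and 9.88% and 11.2% in whole embryos. The hindlimb risers were led by Dcn (4.02), the same gene as in forelimb, and Casd1 fell in hindlimb as well (-1.52). The DNA methyltransferase Dnmt3b fell in hindlimb (-1.90) as in forelimb, and Uhrf1 (-1.21) too, whereas Tet2 rose (1.65). In the IGF pathway, Igfbp3 (2.25), Igfbp5 (1.71) and Igfbp1 (1.69) rose in hindlimb and Igf2bp1 fell (-1.24). The differences between the tissues in these counts were not tested.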
